A study of Mus musculus with 8 samples.

Results

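Histone genes were followed through a block of transcription in mouse embryonic stem cells. Members were the genes whose array probe carries an accession that a RefSeq gene table names with a current symbol of a histone gene. The prefixes taken were H1f, H2ac, H2bc, H2af, H2ax, H2az, H3c, H3f, H4c, H4f and Hist. The rule found 53 genes read by 64 probes, out of 20972 named genes on the array. Of these, 44 belong to the replication-dependent histone clusters and 9 are variants (H1f0, H1f7, H1f8, H1f10, H2ax, H2az1, H2az2, H3f3a and H3f3b). Every culture, untreated ones included, contained LIF, which keeps such cells pluripotent, and 250 nM PD173074, which inhibits FGF receptors. The first group was left untreated (3 arrays), as its treatment label says, although the sample titles of this group name actinomycin D in short form. The other cultures received 5 µM actinomycin D, which blocks transcription, and 30 min later 4 h of ethanol vehicle (2 arrays) or 250 nM 4OHT (4-hydroxytamoxifen, 3 arrays). The strain and cell line are not given in the sources used here, and neither is the target of 4OHT in them. The design text speaks of 3 biological replicates for each condition, and the vehicle group has 2 arrays here.

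Histones package DNA into nucleosomes: H2A, H2B, H3 and H4 form the core and H1 binds the linker DNA between cores. Replication-dependent histone genes lie in clusters, are transcribed in S phase, and mostly give mRNAs that end in a stem-loop rather than a poly(A) tail. That stem-loop is bound by SLBP, and these mRNAs are degraded quickly when DNA synthesis stops. Variant genes lie alone, are spliced or polyadenylated in most cases, and are expressed through the cell cycle; H2ax is unusual in giving both kinds of mRNA. Embryonic stem cells divide fast and spend much of their time in S phase.

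Promoter sequences of the genes on which the comparisons turn are shown first, since the elements searched were more frequent in cluster than in variant windows. Windows from 250 bases before to 50 bases after the RefSeq start (GRCm38.p6) were found for 47 of the 53 members. Searched on both strands were CCAAT (the CCAAT box), TATAAA (a form of the TATA box) and the octamer ATTTGCAT, none of which contains another. CCAAT was in 33 of 39 cluster windows (84.6%) and 5 of 8 variant windows (62.5%), against 41.1% of all 27025 genes with a window. TATAAA was in 24 of 39 cluster windows (61.5%) and 1 of 8 variant windows (12.5%), against 15.7% of all genes. The octamer was in 12 of 39 cluster windows (30.8%), 6 of 12 of H2A genes and 6 of 8 of H2B genes, against 1.97% of all genes. Among the variants the octamer was in the window of H3f3b. Of the 8 H4 windows 2 held CCAAT, whereas all 31 other cluster windows did. The 150 bases before the start are printed 5′ to 3′ for the genes with the largest falls (H1f5 and H2ac4), an H4 pair that moved apart (H4c12 and H4c9), and 3 variants. Capitals mark a motif or its reverse complement:
H1f5 (chr13:21780626-21780775, minus strand): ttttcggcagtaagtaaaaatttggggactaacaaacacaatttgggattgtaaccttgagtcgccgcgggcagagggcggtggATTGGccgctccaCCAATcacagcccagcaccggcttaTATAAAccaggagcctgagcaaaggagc
H2ac4 (chr13:23750938-23751087, plus strand): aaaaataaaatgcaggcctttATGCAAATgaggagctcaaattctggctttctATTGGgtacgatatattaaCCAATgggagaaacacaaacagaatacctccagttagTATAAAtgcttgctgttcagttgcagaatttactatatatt
H4c12 (chr13:21750554-21750703, minus strand): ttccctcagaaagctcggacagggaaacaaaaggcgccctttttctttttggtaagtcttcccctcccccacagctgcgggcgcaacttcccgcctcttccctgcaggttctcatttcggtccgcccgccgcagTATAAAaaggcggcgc
H4c9 (chr13:22041363-22041512, minus strand): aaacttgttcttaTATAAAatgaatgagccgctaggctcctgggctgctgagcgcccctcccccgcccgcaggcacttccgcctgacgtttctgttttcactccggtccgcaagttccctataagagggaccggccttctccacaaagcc
H3f3a (chr1:180813606-180813755, minus strand): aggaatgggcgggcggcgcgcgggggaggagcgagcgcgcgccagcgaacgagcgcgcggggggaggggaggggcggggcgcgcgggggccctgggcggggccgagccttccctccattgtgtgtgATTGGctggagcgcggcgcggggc
H3f3b (chr11:116024505-116024654, minus strand): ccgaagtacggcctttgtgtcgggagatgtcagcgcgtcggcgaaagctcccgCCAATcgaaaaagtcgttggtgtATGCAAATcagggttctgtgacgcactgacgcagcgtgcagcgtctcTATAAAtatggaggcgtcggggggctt
H2az1 (chr3:137864337-137864486, plus strand): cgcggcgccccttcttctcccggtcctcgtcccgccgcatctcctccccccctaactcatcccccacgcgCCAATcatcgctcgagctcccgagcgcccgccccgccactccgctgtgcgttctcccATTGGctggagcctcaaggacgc
H4c12 and H4c9 both hold TATAAA, close to the start in H4c12 and at the far end of the stretch in H4c9. The stretch of H4c9 also holds TATAAG close to the start, which the search for TATAAA does not count. The cluster promoters of H1f5 and H2ac4 hold CCAAT boxes ahead of TATAAA, and H2ac4 has the octamer upstream of both. H3f3b, a variant, holds the same 3 elements, whereas H3f3a and H2az1 hold only CCAAT in the stretch shown. A match is a run of letters and was not tested as a binding site.

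Levels are log2 processed signal minus the 75th percentile of the array, so 0 is the 75th percentile itself, and a level is compared only with the same probe on other arrays. The 75th percentile itself was 333 to 457 on the untreated arrays, 166 and 205 with vehicle and 180 to 209 with 4OHT. Spots well above background made up 61.0 to 75.7% on untreated arrays and fewer on each treated array, down to 53.0%. A rise on this scale can therefore be a loss smaller than the percentile's own, and the difference on a scale of Agilent's spike-in control probes is given beside it. The labels do not describe how those controls were added. The median of all 28491 features was 0.40 for vehicle minus untreated on the first scale and −0.88 on the second. For 4OHT minus vehicle these medians were −0.05 and −0.36, and for 4OHT minus untreated 0.31 and −1.27. The split of calls over all features with vehicle was 4538 lower and 11833 higher on the percentile scale, 4918 and 7425 with quantile scaling, 5950 and 4564 with cyclic loess, and 13089 and 35 unscaled. All 12 embryonic stem cell markers were well above background on every array. With vehicle 3 of the 12 fell and 5 rose on the percentile scale (median 0.52, and −0.75 relative to the spike-ins). The largest falls were those of Klf4 (−3.61) and Sox2 (−3.54). With 4OHT against vehicle 1 was called, Esrrb, which was lower (−0.63, limma adjusted p = 0.028). Of 14 feeder fibroblast markers 9 passed the filter (not Col3a1, Postn, Lum, Dcn and Lox). Their summed log2 level on the percentile scale was 1.59 to 2.07 untreated, 2.12 to 2.47 with vehicle and 2.20 to 2.65 with 4OHT. With vehicle 2 of the 9 fell and 2 rose on that scale (median 0.37, and −0.90 relative to the spike-ins). With 4OHT against untreated 1 fell and 3 rose (median 0.50, and −1.08 relative to the spike-ins). Of 14 primitive endoderm markers 11 passed (not Hnf4a, Ttr and Afp), with summed levels of 7.74 to 8.01, 8.71 to 9.06 and 8.63 to 9.01 in the same order of groups. With vehicle 5 of these 11 fell and 3 rose on the percentile scale (median −0.18, and −1.45 relative to the spike-ins), among them Sox7 (−4.15) and Foxa2 (−2.16) lower and the bright Sparc (1.06; −0.22 relative to the spike-ins) higher. All 11 were well above background on every untreated array, and 6 were on every array of each treated group. A marker detected throughout the untreated group alone entered the test through that group, so its fall is not independent of the filter. Sox7 and Foxa2 were dim with vehicle (mean levels −6.04 and −5.65), so the sizes of their falls are uncertain. The part of these cells in the histone values was not tested.

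All 4OHT arrays lie on a slide of their own, while untreated and vehicle arrays lie in different rows of another, so slide and treatment cannot be told apart in either comparison with 4OHT. In vehicle against untreated, row and treatment cannot be told apart. The untreated samples were taken at 0 h, so time and treatment go together in both comparisons with them. Differences were tested with limma over all 28491 features, with Benjamini-Hochberg adjustment and a threshold of 0.05, and errors are standard errors of that fit. A gene is said to rise or fall only where it passed. Of the 53 members 50 were well above background throughout at least 1 group and entered the test, 41 of them cluster genes. H1f3, a linker histone gene, was not well above background on any of the 8 arrays. H1f6, the testis H1, was left out of the test because its spot on untreated replicate 2 was marked as an outlier. Its levels were −1.87 and −1.57 on the other untreated arrays, −1.34 and −1.36 with vehicle and −1.37, −1.43 and −1.01 with 4OHT. H2bc23 was well above background on 2 of 3 untreated, 1 of 2 vehicle and 1 of 3 4OHT arrays. Cluster genes of 1 core histone family (H2A, H2B, H3 or H4) are nearly identical in coding sequence, so a probe may also read other copies. The value of a single such gene is uncertain to that extent. Which copies a probe reads was not checked for any family, H1 included. If the labelling primed on poly(A), which is not given in the sources used here, probes of cluster genes read polyadenylated or internally primed copies, and which form was read was not tested.

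Vehicle against untreated compares histone mRNA levels after the transcription block with those before it. Of the 41 cluster genes 26 fell and 6 rose on the percentile scale, with a median log2 difference of −1.19. Over all features 15.9% fell and 41.5% rose, so the cluster median lay 1.59 below that of all features (−1.59). Of the 9 variants 1 fell and 4 rose on the percentile scale, with a median of 0.83, or 0.44 above that of all features. That variant, H1f7, and the cluster gene H2ac21 entered the test only through the untreated group, where they are high. Their falls are therefore not independent of the filter. On the spike-in scale 32 cluster genes and 3 variants were lower, against 64.9% of all features. None of the members passed as higher there by limma's adjusted p (0.112% of all features did), and 1 was higher at an unadjusted p under 0.05. The cluster median there was −2.47 and the variant median −0.44. All 9 variants lay below 0 on the spike-in scale, so none of their rises held there. In bulk RNA of this kind, fewer cells in S phase and less histone mRNA per cell cannot be told apart.

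**Figure D1:**
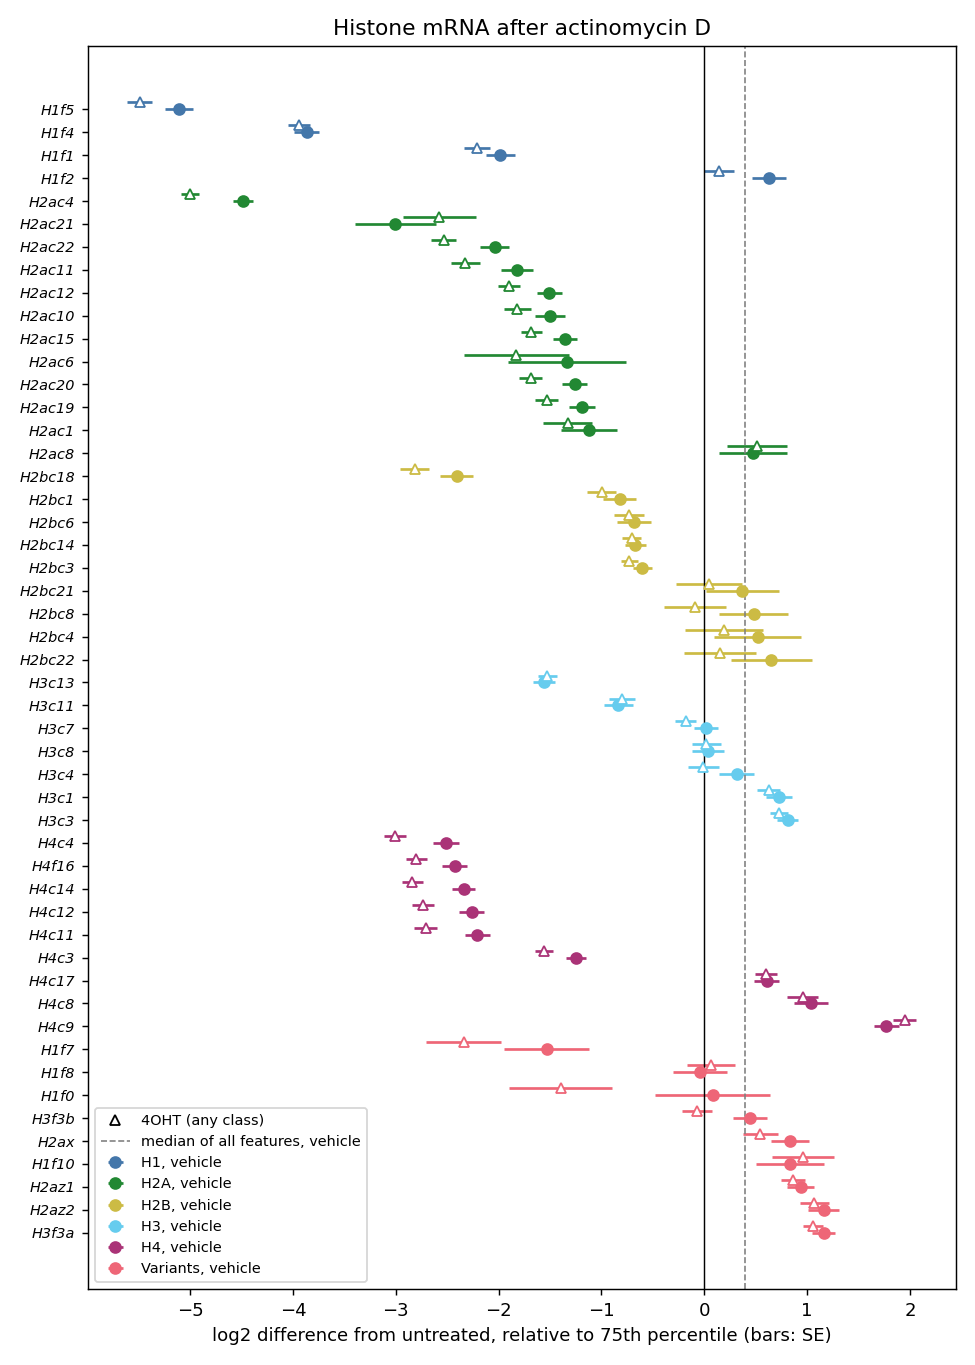
Log2 difference from untreated (x axis, relative to each array's 75th percentile) for the 50 tested histone genes, sorted within families; filled circles are vehicle, open triangles 4OHT, bars standard errors, and the dashed line the median of all features for vehicle (0.40). Falls reach −5.11 for H1f5 with vehicle, while most variants lie right of 0; the spike-in scale moves all vehicle points left by the same amount, and there every gene except H4c9 lies below 0.

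Linker histone genes H1f5 and H1f4 held 2 of the 3 largest falls, the third being that of H2ac4. H1f5 was at 5.18, 5.07 and 5.01 on the untreated arrays, −0.21 and 0.18 with vehicle, and −0.48, −0.33 and −0.40 with 4OHT. Its treated arrays lie far below every untreated array, a fall of 5.11 ± 0.14 or 34.5-fold with vehicle (adjusted p = 3.5e-06). H1f4 went from 3.08, 3.37 and 3.09 to −0.68 and −0.69 with vehicle, a 14.6-fold fall (−3.87 ± 0.12, adjusted p = 5.3e-06). H1f1 fell by 1.98 ± 0.14. H1f2, a further somatic H1, parted from them with levels of −0.29, −0.09 and −0.06 untreated and 0.62 and 0.35 with vehicle. It rose by 0.63 ± 0.16 (adjusted p = 0.014), turned to −0.64 against the spike-in probes, and lost its call without vehicle replicate 1 (0.50, adjusted p = 0.089).

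Of the 12 tested H2A genes 10 fell with vehicle, with a median of −1.42, and the other two, H2ac6 and H2ac8, were not called. H2ac4 was at 6.88, 6.93 and 6.78 untreated and at 2.33 and 2.43 with vehicle. The groups are far apart, and the fall was 22.4-fold (−4.48 ± 0.10, adjusted p = 3.5e-06). H2ac21 was well above background on all 3 untreated arrays (−2.60, −3.08 and −2.88) and on no treated array, a difference of at least 3.67-fold with vehicle (adjusted p = 0.00078). It entered the test only through the untreated group, so this difference is not independent of the filter. With normexp background correction the difference was 0.05 and not called (adjusted p = 0.71). The probes of H2ac10, H2ac11, H2ac12, H2ac15, H2ac19, H2ac20 and H2ac22 are bright and moved in a narrow band, from −1.19 for H2ac19 to −2.04 for H2ac22. For H2ac12, levels were 9.26, 8.98 and 8.97 untreated, 7.56 on both vehicle arrays and 7.23, 7.08 and 7.20 with 4OHT. A second probe of H2ac15 fell by 2.83 ± 0.21, against 1.35 ± 0.12 for its brighter probe. A second, dimmer probe of H2ac19 was not called (0.74 ± 0.61), so both genes have probes that disagree. H2ac1, the testis-type H2A, fell by 1.12 ± 0.27 (adjusted p = 0.011).

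Of the H2B genes 5 of 9 fell, with a median of −0.60, and the difference from the H2A median was not tested. H2bc18 was the exception in size, at 2.74, 2.90 and 2.83 untreated and 0.34 and 0.48 with vehicle, a 5.31-fold fall (−2.41 ± 0.16, adjusted p = 7.8e-05). H2bc1, the testis-type H2B, H2bc3, H2bc6 and H2bc14 fell by 0.60 to 0.82. H2bc4, H2bc8, H2bc21 and H2bc22 were not called, with differences of 0.37 to 0.65 and overlapping arrays. For H2bc4, levels were 0.92, 1.68 and 1.09 untreated and 2.22 and 1.27 with vehicle, so replicates differ by as much as the groups do.

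Core histone H3 genes went both ways, 2 lower and 2 higher of 7, with a median of 0.03. H3c13 fell by 1.56 ± 0.10 (adjusted p = 8.4e-05), from 2.96, 3.09 and 2.98 to 1.34 and 1.56, and H3c11 fell by 0.83 ± 0.14. H3c3 was at 2.63, 2.47 and 2.58 untreated and at 3.38 and 3.36 with vehicle, a rise of 0.81 ± 0.10 (adjusted p = 0.00059; −0.47 on the spike-in scale). H3c1 went from −0.33, 0.05 and −0.23 to 0.59 and 0.52, a rise of 0.72 ± 0.13 (adjusted p = 0.0028; −0.55 relative to the spike-ins). In both genes every vehicle array is above every untreated array, as in 14539 of all 28491 features. H3c4, H3c7 and H3c8 were not called, with differences of 0.32, 0.02 and 0.03.

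H4 genes split into 6 that fell and 3 that rose on the percentile scale. The differences were −2.51 ± 0.12 for H4c4, −2.43 ± 0.12 for H4f16, −2.34 ± 0.11 for H4c14, −2.26 ± 0.12 for H4c12, −2.21 ± 0.12 for H4c11 and −1.25 ± 0.10 for H4c3. For H4c12, levels were 7.32, 7.16 and 7.18 untreated, 4.96 on both vehicle arrays and 4.31, 4.51 and 4.63 with 4OHT. Its 3 groups do not overlap, and its second probe fell alike with vehicle (−2.27 ± 0.13). H4c9 went the other way, from 0.11, 0.39 and 0.06 untreated to 1.95 and 1.96 with vehicle and 2.07, 2.20 and 2.14 with 4OHT. Its rise of 1.77 ± 0.12 (3.41-fold, adjusted p = 0.00011) was the only member difference above 0 on the spike-in scale as well (0.50, adjusted p = 0.055, not called). The second H4c9 probe was not called (0.37 ± 0.18, adjusted p = 0.11; −0.90 on the spike-in scale), so the rise rests on 1 probe. H4c8 was dimmer, at −2.74, −2.62 and −3.17 untreated and −1.83 and −1.78 with vehicle. H4c8 rose by 1.04 ± 0.17 (−0.24 relative to the spike-ins), and H4c17 by 0.61 ± 0.12 (−0.67 on that scale).

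**Figure D2:**
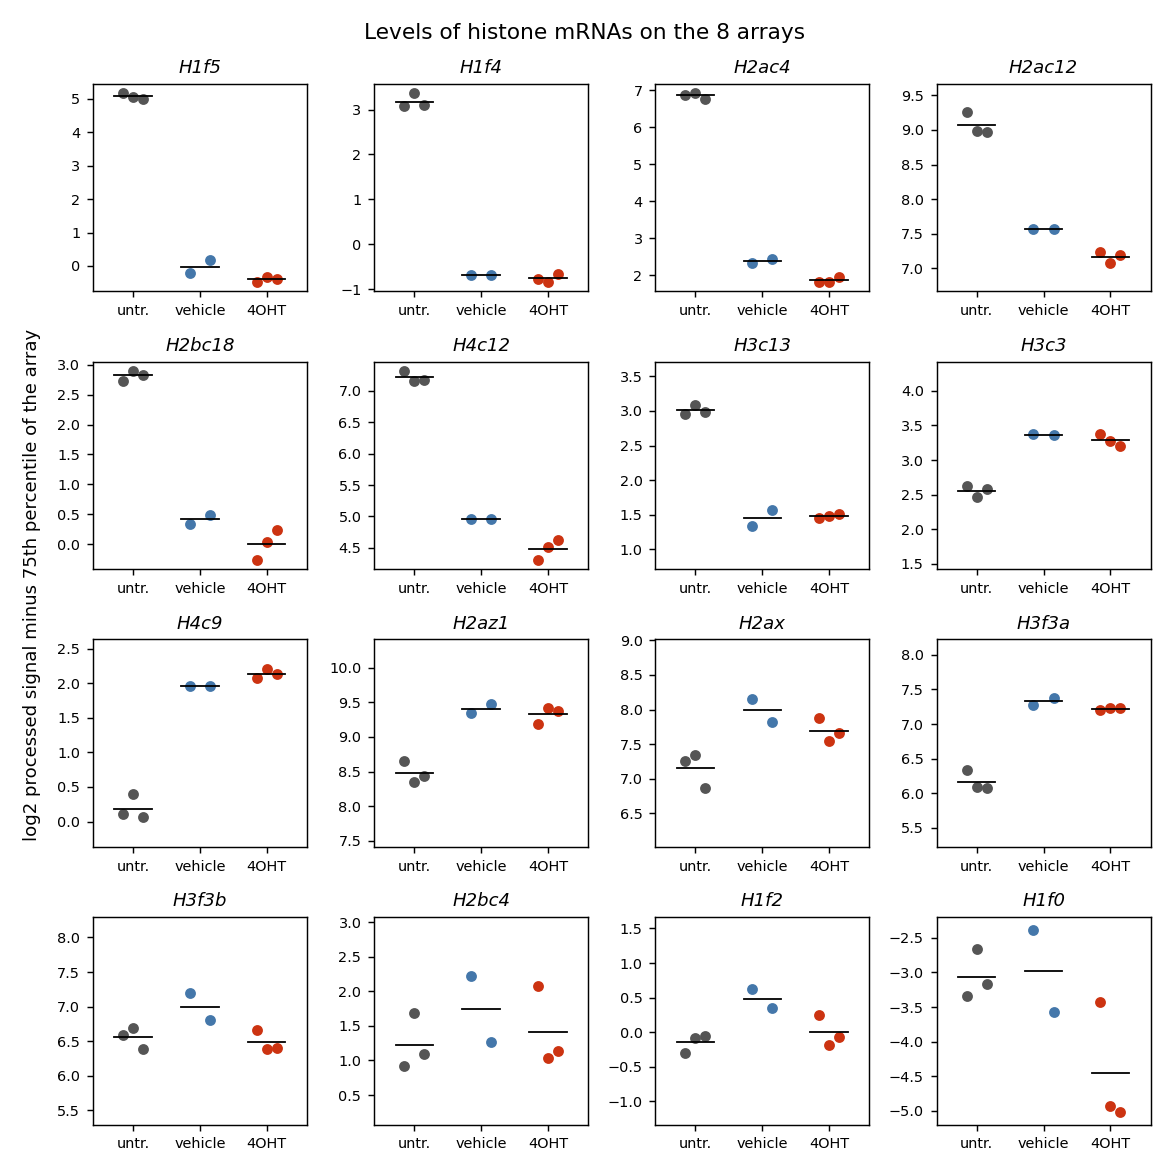
Levels on the percentile scale (y axis, log2, with a separate range in each panel) for 16 histone genes on the 8 arrays, with untreated in grey, vehicle in blue and 4OHT in red; points are arrays and bars group means. H1f5 drops from above 5 to near 0 after actinomycin D, whereas H4c9 goes from at most 0.39 to near 2, and H2bc4 and H1f0 spread within groups; relative to the spike-in probes no variant shown rose.

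Variants for H3.3, the replacement form of H3, come next. H3f3a, one of 2 genes for this protein, was at 6.34, 6.08 and 6.07 untreated, 7.28 and 7.37 with vehicle and 7.21, 7.23 and 7.23 with 4OHT. Every treated array is above every untreated array, a rise of 1.16 ± 0.11 with vehicle (adjusted p = 0.00028), which was −0.11 on the spike-in scale. Of all 28491 features, 14539 had every vehicle array above every untreated array, and 12858 every 4OHT array. H3f3b, the other gene for H3.3, had 6.59, 6.70 and 6.39 untreated against 7.20 and 6.80 with vehicle and was not called (0.44 ± 0.16, adjusted p = 0.054). It passed without vehicle replicate 2 (0.64, adjusted p = 0.03), while on the spike-in scale it was lower (−0.83, adjusted p = 0.017). Second probes of the 2 genes gave 0.96 for H3f3a and 0.55 and 0.43 for H3f3b, the 0.55 being called (adjusted p = 0.023). Both genes encode the same protein.

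H2az1 encodes H2A.Z, a variant placed at promoters. On the percentile scale it rose by 0.94 ± 0.13 (adjusted p = 0.00099), from 8.65, 8.34 and 8.43 to 9.34 and 9.48, but was −0.34 on the spike-in scale and −0.16 with quantile scaling. H2az2, its paralogue, rose by 1.16 ± 0.16 (adjusted p = 0.00083; −0.12 relative to the spike-ins), from 6.47, 6.52 and 6.17 untreated to 7.66 and 7.42 with vehicle. H2ax, which is phosphorylated at DNA breaks, was at 7.25, 7.34 and 6.87 untreated and at 8.16 and 7.81 with vehicle. This rise of 0.83 ± 0.19 (adjusted p = 0.008) turned to −0.44 relative to the spike-ins and −0.14 with quantile scaling, and the call was lost without vehicle replicate 1 (0.66, adjusted p = 0.055).

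H1 variants were dim or variable. H1f0, the replacement linker histone, was at −3.35, −2.66 and −3.17 untreated and −2.39 and −3.57 with vehicle, so its vehicle arrays bracket the untreated ones (0.08 ± 0.56, adjusted p = 0.91). H1f7 was well above background on untreated arrays alone, a fall of at least 1.48-fold with vehicle (adjusted p = 0.017), and its call was lost without either vehicle replicate. H1f7 entered the test only through the untreated group, where it is high, so its fall is not independent of the filter. H1f10 (0.84 ± 0.33, adjusted p = 0.068) and H1f8, an oocyte H1 (−0.04 ± 0.26), were not called.

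4OHT against vehicle asks what 4OHT adds during the block. Of the 50 tested members 1 was lower and none was higher by limma's adjusted p, against 2.58% lower and 0.92% higher of all features. At an unadjusted p under 0.05, 18 members (36%) were lower and 0 higher, against 12.8% and 6.33% of all features. The median difference of the 50 was −0.31 (all features −0.05), and 43 (86%) lay below 0, as did 58.0% of all features. The calls over all features, 734 lower and 262 higher, depend on single arrays: they were 74 and 53 without vehicle replicate 1, 253 and 165 without vehicle replicate 2, 415 and 119, 184 and 50, and 308 and 69 without 4OHT replicates 1, 2 and 3, and 378 and 123, 561 and 202, and 348 and 102 without untreated replicates 1, 2 and 3. Every 4OHT array was below every vehicle array for 24 members (48%), which is above the 24.8% of all features, and above for 1, H4c9 (13.5% of all features; H4c9 was at −0.13 on the spike-in scale). On the spike-in scale 3 members were lower (4.1% of all features) and none higher (0.14%; 0 at an unadjusted p under 0.05). These were H4c4, H4c11 and H4c14. A second, dim probe of H4c14 went the other way and was not called on the percentile scale (0.51 ± 0.46; 0.21 relative to the spike-ins). It was well above background on no vehicle array and on 1 of 3 4OHT arrays.

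H2ac4 was the member that passed on the percentile scale, with vehicle levels of 2.33 and 2.43 and 4OHT levels of 1.82, 1.82 and 1.94. The arrays do not overlap, and the fall was 0.52 ± 0.10 (1.43-fold, adjusted p = 0.04). It no longer passed when any of the 8 arrays was left out (adjusted p from 0.059 to 0.14) or with quantile scaling (adjusted p = 0.06), and over all alternatives the adjusted p ran from 0.009 to 0.78. The H4 genes H4c4, H4c11, H4c12 and H4c14 had differences of −0.47 to −0.50 and were not called (adjusted p = 0.071 to 0.09). H4c4 was at 3.67 and 3.75 with vehicle and 3.04, 3.22 and 3.39 with 4OHT. H4c14 was at 4.58 and 4.63 with vehicle and 3.97, 4.10 and 4.25 with 4OHT, so in both the groups are apart while the 4OHT arrays spread. H2ac11 and H2ac22 had differences of −0.50 and −0.49 (adjusted p = 0.15 and 0.11). Of the H4 genes with rises in the previous comparison, H4c9 differed by 0.18 ± 0.12, H4c8 by −0.08 ± 0.17 and H4c17 by −0.01 ± 0.12. The H3 median was −0.08, close to that of all features, against −0.37 for H2A, −0.33 for H2B, −0.37 for H4 and −0.30 for H1 cluster genes, differences that were not tested. With 2 vehicle arrays the typical standard error over all features was 0.17, which limits what can be detected here.

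Of the variants, H3f3b was at 6.66, 6.39 and 6.41 with 4OHT, below both vehicle arrays, and was not called (−0.51 ± 0.16, adjusted p = 0.15). H1f0 was well above background on both vehicle arrays but on 1 of 3 4OHT arrays (−3.43, against −4.93 and −5.01 on the others), so the size of its difference is not measured, and it was not called (adjusted p = 0.21). H3f3a (−0.11 ± 0.11), H2az1 (−0.08 ± 0.13) and H2ax (−0.29 ± 0.19) were not called either.

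**Figure D3:**
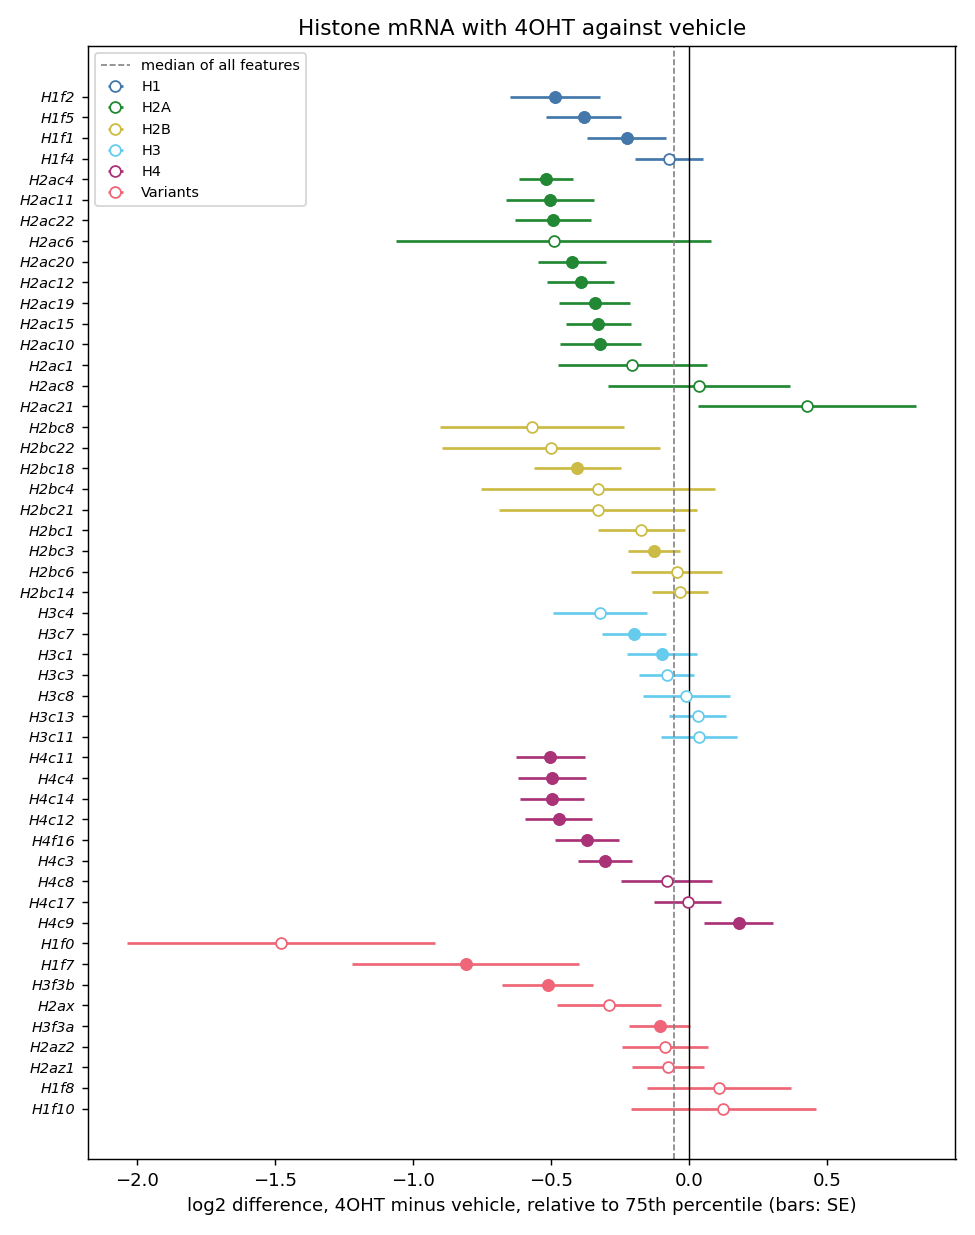
Log2 difference of 4OHT minus vehicle (x axis, relative to the array's 75th percentile; bars are standard errors) for the 50 tested histone genes by family. Filled points mark the 24 genes whose 4OHT arrays all lie below both vehicle arrays and H4c9, whose 4OHT arrays all lie above; most points lie left of the dashed median of all features (−0.05), and on the spike-in scale H4c9 is at −0.13.

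4OHT against untreated shares its arrays with both comparisons above. Of 41 cluster genes 27 fell and 5 rose, against 18.7% and 41.0% of all features, and of the 9 variants 2 fell and 5 rose on the percentile scale. H2ac6, H2ac21 and H1f7 are among these falls. They entered the test only through the untreated group, where they are high, so their falls are not independent of the filter. H1f5 was 44.9-fold lower, H2ac4 32.1-fold, H1f4 15.4-fold and H4c4 8.05-fold. H4c9 rose by 1.95 and H2az2 by 1.07, while on the spike-in scale H4c9 was at 0.37 (not called) and H2az2 at −0.51. H1f0, with 2 of its 3 4OHT arrays not well above background, was called lower (−1.40, adjusted p = 0.045), a call that was lost without any 1 of untreated replicates 1, 2 and 3 or 4OHT replicates 2 and 3 (adjusted p from 0.073 to 0.13), and whose sign turned with another background correction (0.21). H1f10, the H1X gene, was at 0.87, 0.56 and 0.59 with 4OHT and rose by 0.96 (adjusted p = 0.028; −0.62 relative to the spike-ins). H1f2, whose 4OHT arrays were at 0.25, −0.19 and −0.06, was not called (0.14, adjusted p = 0.43).

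Some neighbouring members moved in opposite directions on the percentile scale. The gene order holds 24 pairs of adjacent members, and the RefSeq strands of both genes were known for 19 of them, of which 3 are divergent. In H2bc1 and H2ac1 both fell with vehicle (−0.82 and −1.12). In H2ac8 and H2bc8 neither was called (0.48 in each), and in H2ac22 and H2bc22 the first fell (−2.04) while the second was not called (0.65). Next to H1f5, which fell by 5.11, H3c11 fell by 0.83. H4c9 rose beside H2ac11, which fell by 1.82, and H4c8 rose beside H2ac10, which fell.

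Genes that make or handle histone mRNA were listed with earlier results of these data known, and their counts stand beside 15.9% lower and 41.5% higher of all features with vehicle, and 2.58% and 0.92% with 4OHT against vehicle. For processing and decay of histone mRNA, 7 of 27 genes fell and 16 rose with vehicle on the percentile scale. Slbp, the stem-loop binding protein, was at 2.68 ± 0.05 untreated (SD, n = 3), 2.19 ± 0.17 with vehicle (SD, n = 2) and 0.45 ± 0.24 with 4OHT (SD, n = 3). It fell by 0.50 with vehicle (adjusted p = 0.03) and by a further 1.74 ± 0.16 with 4OHT (adjusted p = 0.0065). Zfp473 and Lsm11, components of the U7-dependent 3′ end machinery, had the largest falls of this list with vehicle (−1.81 and −1.40), and Snrpf and Snrpg, which encode shared Sm proteins, the largest rises (1.19 and 1.18; −0.09 on the spike-in scale for both). With 4OHT, Lsm1 fell by 0.49 (adjusted p = 0.036) and Zfp473 rose by 0.56 (adjusted p = 0.032). The list's median against vehicle was 0.00.

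For histone gene transcription, 4 of 12 genes fell with vehicle, led by Casp8ap2 (−2.80), which is needed for histone gene expression, and Cramp1l (−1.98), while 3 rose on the percentile scale. None of the 12 was called by limma's adjusted p with 4OHT against vehicle, and at an unadjusted p under 0.05, 2 were lower and 0 higher. Among 26 chaperone and deposition genes 5 fell and 19 rose with vehicle on that scale, with Chaf1a, a subunit of the replication-coupled assembly factor, at −1.06. With 4OHT, Ubn1, which deposits H3.3 (−0.65, adjusted p = 0.029), and Ino80 (−0.55, adjusted p = 0.027) fell. Among 28 DNA replication genes 3 fell and 22 rose with vehicle, with falls in the licensing factors Cdc6 (−1.90) and Cdt1 (−1.67). With 4OHT, Cdt1 (−1.18, adjusted p = 0.0091) and Ccna2, the S-phase cyclin A2 (−1.06, adjusted p = 0.01), fell. These medians on the percentile scale with vehicle, 0.70, 0.19, 0.69 and 0.70 in the order of the lists above, were −0.58, −1.08, −0.58 and −0.57 on the spike-in scale, where the median of all features was −0.88.

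The array with the most detected spots in each group (untreated 2, vehicle 1 and 4OHT 1) had the highest level of its group for 15 of the 50 members (30%), against 13% of all features. The 15 were H1f0, H1f1, H1f10, H2ac1, H2ac8, H2ax, H2az2, H2bc1, H2bc4, H2bc8, H2bc22, H3c1, H3c4, H3c8 and H3f3b. Without these 3 arrays, 27 cluster genes fell and 6 rose with vehicle, and 1 variant fell and 5 rose.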

How the data were processed

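RNA of mouse embryonic stem cells was measured on 8 single-colour Agilent arrays. Per the file headers, each deposited intensity is a processed signal that the authors obtained with Feature Extraction 11.0.1.1 from Agilent, and the array is annotated on mm9. The label names Cy5, whereas the files hold the green channel. The deposited value table equals this linear, uncentred intensity within a relative 0.005 for 100% of probes, with column medians of 21.2, 45.0 and 24.6 untreated, 12.2 and 13.9 with vehicle and 13.5, 11.3 and 12.4 with 4OHT. Per the labels' protocols, a low-input kit amplified a fixed mass of total RNA. Such kits usually prime on poly(A), and the primer is not given in the sources used here.

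Control and outlier-marked spots were dropped, spots of a probe averaged, and log2 taken after scaling each array to its 75th percentile. A probe was kept if all arrays of 1 group or more had it well above background (33008 probes), and each gene was represented by the kept probe with the highest mean. The 3 groups were fitted together with limma 3.58.1 in R 4.3.3 (lmFit and eBayes, 5 residual degrees of freedom, tested on simulated data). P-values measure the spread between arrays, and their number limits the precision. No slide term could be fitted. An "at least" fold sets the brighter group against the lowest signal well above background. Members and lists were chosen with earlier results of these data known. Full statistics go to 5 variants and to up to 8 falls and 8 rises of cluster genes per comparison, and up to 2 of each per related list, plus Slbp.

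Accessions were matched to a RefSeq table of GRCm38.p6, used for names, gene order and the promoter windows. The spike-in scale subtracts the mean of 8 of 10 control probes. Other alternatives were normexp background (offset 50), quantile, cyclic loess, median and no scaling, the deposited value table, other filters, probe rules and eBayes priors, a fit of 2 groups alone, a 2-fold minimum, a block for the replicate number, leaving out arrays, and other membership.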

Additional observations from a re-analysis of the deposited data

How the results depend on the processing

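The count of cluster genes that fell stayed within 1.5 times its value under each setting tried, although single calls were lost: 26 became 21 (2-fold minimum) to 32 (spike-in scale) with vehicle, and 27 became 22 to 40 with 4OHT against untreated. Without each array in turn, 25 to 27 fell and 5 to 7 rose with vehicle, and 26 to 27 fell and 5 rose with 4OHT against untreated. Rises were the weak point. On the spike-in scale (vehicle, then 4OHT, both against untreated), 0 and 0 cluster genes and 0 and 0 variants were higher. Variants lower there were 3 and 8. Of all 28491 features 32 and 30 were higher on that scale, and 18481 and 26598 lower. Without scaling 1 and 1 cluster genes and 0 and 0 variants were higher, and 2 and 4 variants lower. Of all features 35 and 95 were higher unscaled, and 13089 and 15795 lower. With vehicle on the spike-in scale H1f2 was at −0.64, H2ax −0.44, H2az1 −0.34, H3c1 −0.55, H3c3 −0.47, H3f3a −0.11, H3f3b −0.83, H4c17 −0.67 and H4c8 −0.24; unscaled, H1f2 was at −0.47, H2ax −0.26, H2az1 −0.16, H3c1 −0.37, H3c3 −0.29, H4c17 −0.49 and H4c8 −0.058. With 4OHT against untreated on the spike-in scale H2ax was at −1.04, H2az1 −0.72, H3c1 −0.95, H3c3 −0.85, H3f3a −0.52, H4c17 −0.98 and H4c8 −0.62; unscaled, H2ax was at −0.51, H2az1 −0.20, H3c1 −0.43, H3c3 −0.33, H3f3a −0.00025, H4c17 −0.45 and H4c8 −0.10. Quantile and cyclic loess scaling put H2ax at −0.14 and −0.078 and H2az1 at −0.16 and −0.14 with vehicle. With 4OHT against untreated these were −0.31, −0.29, −0.083 and −0.10. Variants higher were then 1 and 1 with vehicle and 2 and 1 with 4OHT. Of all features 7425 and 4564 were higher with vehicle, and 8569 and 5571 with 4OHT against untreated. Normexp background put H2ac21 at 0.049 with vehicle and H1f0 at 0.21 with 4OHT against untreated. It gave 12 and 9 higher cluster genes, 8 higher variants with vehicle, and 0 and 1 lower variants. Of all 28491 features 19041 and 19752 were higher under it, and 3609 and 3790 lower. A 2-fold minimum left 2 and 1 higher cluster genes and 2 and 2 higher variants (2808 and 2412 of all features). No filter gave 3 higher and 1 lower variants with 4OHT against untreated (14694 and 5111 of 48602 features). A filter over all 8 arrays left 0 lower variants in either comparison (3419 and 3838 of 22968 features). Counting probes gave 8 and 9 higher variants (13907 and 13940 of 33008 probes). Adding older names gave 7 and 8 higher and, with vehicle, 2 lower.

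For 4OHT against vehicle, 1 cluster gene was lower, and over all features 734 were lower and 262 higher (142 and 71 with median scaling, 83 and 28 with no filter, 48 and 18 with only the groups compared, 75 and 17 unscaled, 0 and 0 without the array of most detected spots in each group). The count of cluster genes was 0 with median, quantile or no scaling, no filter, only the groups compared, a 2-fold minimum, without the array of most detected spots in each group (chosen after seeing the data) and without each array in turn (0 to 0), 3 with normexp or the spike-in scale, and 5 with trended eBayes. Without each array, variants higher were 3 to 6 with vehicle and 3 to 5 with 4OHT against untreated, and variants lower 0 to 1 and 1 to 2. The causes were not tested. Same-numbered vehicle and 4OHT arrays deviated together with correlations of 0.36 (replicate 1) and 0.22 (replicate 2). Between untreated and treated arrays of the same number the correlations ran from −0.19 to 0.11. The deviations of the 2 vehicle arrays from their mean are exact opposites. Swapping the vehicle arrays therefore only turns the sign of 0.36 and 0.22, and these values are not independent of each other. Other arrays of different numbers were not compared, so whether the replicate numbers pair the arrays was not settled. With the number as a replicate block, the count for 4OHT against vehicle was 0 and that of lower variants with 4OHT against untreated 1; other counts of member calls moved by at most 1. Over all features the block left 12 lower and 8 higher for 4OHT against vehicle, and 4321 lower and 10735 higher for vehicle against untreated. With 2 vehicle arrays, small differences are hard to detect, and dim probes such as H2ac21, H2ac6 and H1f7 are limited by signal over background.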

Other observations

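Another 9 genes carry an older histone name only and were outside the rule; 7 of them passed the filter. H2aj, an H2A gene outside the clusters, fell with vehicle by 1.15 ± 0.16 (adjusted p = 0.00088), while its second probe was not called (−0.34 ± 0.19). The macroH2A genes, whose products carry a large extra domain, rose on the percentile scale and lay below untreated on the spike-in scale. Macroh2a1 rose by 0.98 ± 0.12 (−0.30 on the spike-in scale), Macroh2a3 by 0.96 ± 0.34 (−0.32) and Macroh2a2 by 0.71 ± 0.20 (−0.57). With 4OHT against vehicle these 3 differed by −0.07, 0.15 and 0.14 and were not called.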
